A study of Mus musculus with 64 samples.

Results

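The genes described here are 40 genes of macrophages, of 36332 distinct genes in the deposited table. They were chosen by name from knowledge of the cell type, with earlier results of these data known, and sorted by role. The rule itself did not use their values in these libraries. All 40 were found in the table by symbol. They comprise 15 genes common to macrophages and other myeloid cells, 6 Fc receptors and signalling adaptors, the 3 chains of complement C1q, 4 scavenger receptors of resident macrophages, 5 Kupffer cell genes, 5 genes of lipid-associated macrophages and 2 chemokine receptors.

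Macrophages are phagocytes that clear dead cells, debris and microbes, and nearly every organ holds its own resident population. Kupffer cells are those of the liver. They line the sinusoids, are seeded largely before birth and renew themselves, and in mice are known by the lectin Clec4f, the phosphatidylserine receptor Timd4, the scavenger receptor Marco, the complement receptor Vsig4 and the secreted protein Cd5l (also called AIM). Lipid-associated macrophages gather around dying adipocytes in fat tissue. They are known by the lipid receptor Trem2, the glycoprotein Gpnmb, the elastase Mmp12, the integrin chain Itgax (CD11c) and the vacuolar proton pump subunit Atp6v0d2. Resident macrophages of many tissues carry the mannose receptor Mrc1, the haemoglobin receptor Cd163, the folate receptor Folr2 and the hyaluronan receptor Lyve1, and they are a main source of C1q.

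The study compared mice lacking Myc throughout the body (KO, which carry the tamoxifen-inducible Cre allele Gt(ROSA)26Sortm1(cre/ERT2)Tyj and the floxed allele Myctm2Fwa on a B6.129 and B6.129S6 background) with C57/B6 mice (WT) in omental adipose tissue, liver and skeletal muscle at 5 and 20 months of age, 12 groups and 64 libraries in all. Each of the 5-month groups had 6 libraries, except KO muscle with 4, and each of the 20-month groups had 5. Mice of both genotypes received 5 daily injections of tamoxifen at 75 mg/kg in corn oil around weaning, once they weighed 15 g or more. The CreERT2 gene sits at the Gt(ROSA)26Sor locus and is active in all cell types by its design, and the loss of Myc in macrophages themselves was not measured. WT mice carried neither the Cre nor the floxed alleles and were not of the KO mice's mixed background, so the genotype, the Cre and the background cannot be told apart. The older mice are labelled 20 months, while their library codes hold the number 18. The labels do not say which libraries came from separate animals, so the p-values measure the spread between these libraries.

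Values are normalised read counts (counts-per-million, CPM), and a difference is on the log2(CPM + 1) scale, where 1 is a doubling for a well expressed gene and the change of a low gene is understated. A gene was called changed at an adjusted p under 0.05 over all genes tested in that tissue. The libraries held 15449409 to 28500633 reads in genes, with a median of 19554766. Myc itself averaged 17.65 ± 5.11 CPM (SD, n = 6) in WT and 5.76 ± 2.91 (n = 6) in KO adipose at 5 months, 19.6 ± 10.3 (n = 6) and 2.59 ± 1.06 (n = 6) in liver, and 29.1 ± 27.2 (n = 6) and 10.2 ± 5.21 (n = 4) in muscle. The KO deficit passed the test in young adipose (log2 -1.52, adjusted p = 0.017) and young liver (-2.38, adjusted p = 0.00093), but not in muscle or at 20 months. The summed adipocyte, hepatocyte and muscle fibre markers were highest in the tissue of their label. At 5 months 4 adipose libraries held epididymis transcripts (KO replicates 1, 5 and 6 and WT replicate 6). In addition 12 libraries, 2 in each of the 6 young groups, held Xist, the RNA of the inactive X chromosome, and no library at 20 months did. These 12 held 0 CPM of the Y-chromosome genes examined, the pattern of female mice, while all other libraries held such transcripts. Each age comparison thus sets young groups of both patterns against old groups without the female one, so age and sex are partly mixed. In muscle, WT replicate 2 at 20 months held hepatocyte transcripts, KO replicate 2 at 5 months lymphocyte transcripts, and KO replicates 1 at both ages and WT replicate 3 at 20 months neutrophil transcripts. WT muscle replicate 6 at 5 months held epididymis transcripts (126 CPM). The epididymis libraries left out below are the adipose ones only, and this muscle library was left out only on its own.

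Kupffer cell genes stood highest in liver and lipid-associated genes in adipose tissue, as compared in young WT mice. All 5 Kupffer genes were higher in liver than in adipose, by 1.23 (Timd4), 2.12 (Vsig4), 2.19 (Marco), 4.48 (Cd5l) and 6.87 (Clec4f) on the log2 scale. All 5 lipid-associated genes were lower in liver than in adipose, from -2.64 for Atp6v0d2 to -5.89 for Gpnmb. Of the 40 genes, 36 were called in this comparison, 5 higher and 31 lower in liver, beside 69.7% of all genes tested (34.1% higher and 35.7% lower). The 5 higher ones were the Kupffer genes. Between adipose and muscle 39 were called, all higher in adipose, beside 68.9% of all genes (38.8% in that direction), and the exception was Clec4f. Mmp12 was 5.15 and Trem2 3.90 higher in adipose. Between liver and muscle 30 were called, 26 higher and 4 lower in liver, beside 73.1% of all genes (36.4% higher and 36.7% lower). Clec4f had 0 reads in all 6 young WT muscle libraries. Against a floor of 3 reads per library, which is 0.212 CPM on average, its mean of 130.0 CPM in liver was at least 614-fold higher. In bulk tissue fewer cells of a type and less RNA per cell cannot be told apart, here and in every comparison that follows. Without the deposited scaling factor, which differs between tissues, the median of all genes moved to -1.0 for liver against adipose, Timd4 differed by 0.31 (adjusted p = 0.286) and was no longer called, and the other 4 Kupffer genes kept their call.

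**Figure D1:**
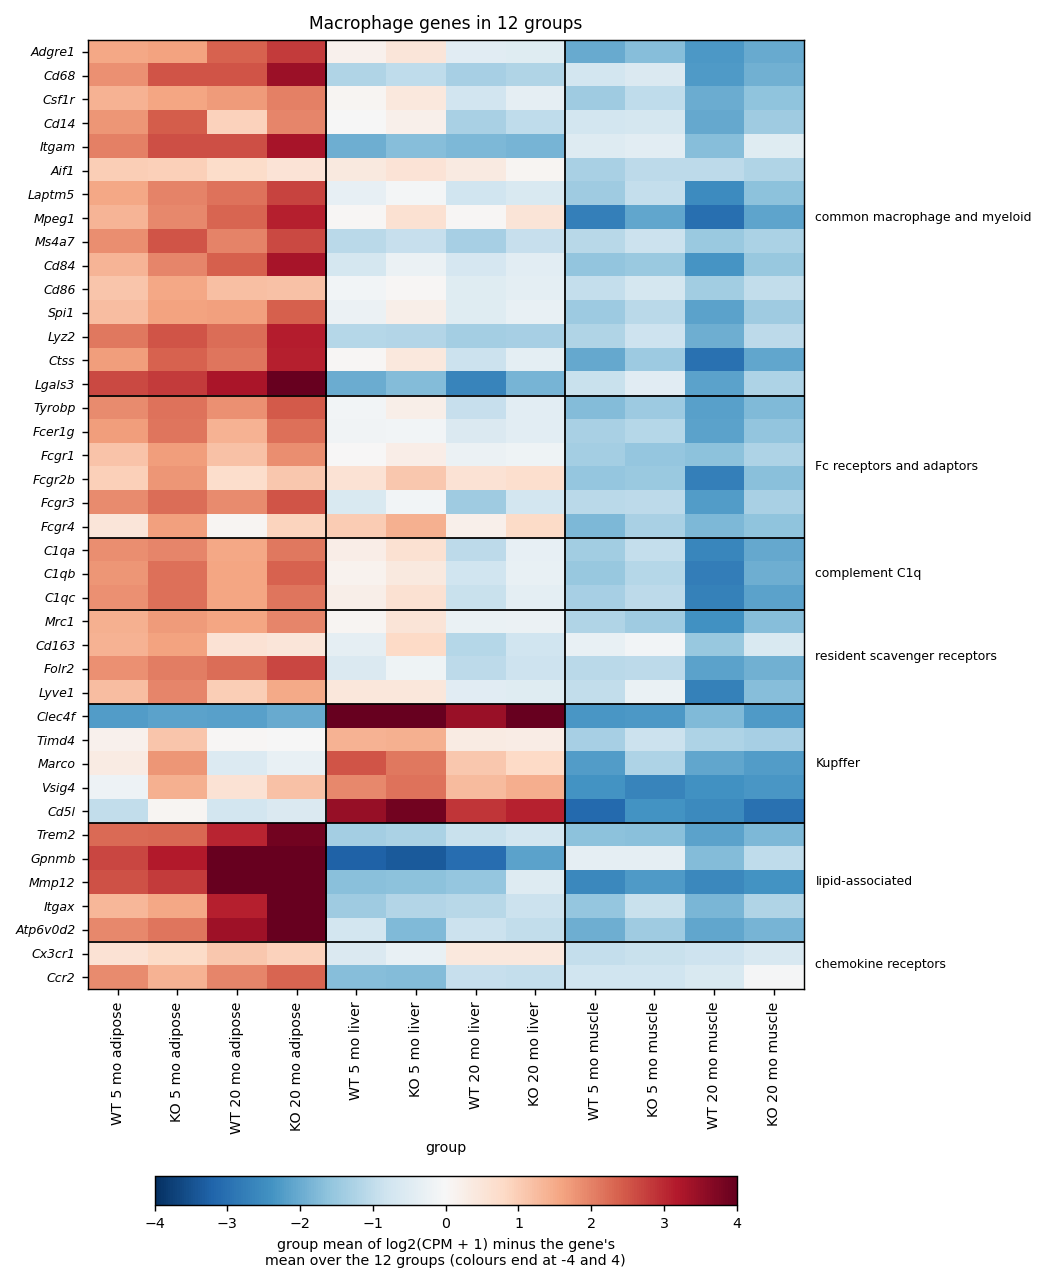
Group means of log2(CPM + 1) of the 40 genes (rows, by role) in the 12 groups (columns), each minus the gene's own mean over the groups, so that colours compare groups within a gene and not genes with each other. Each Kupffer gene is highest in a young liver column, and Clec4f and Cd5l are higher in every liver column than elsewhere. For Timd4, Marco and Vsig4 the young KO adipose column lies above at least 1 old liver column. The lipid-associated genes are highest in the old KO adipose column.

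In liver, C1q genes and some of the Kupffer genes fell with age. All 3 C1q genes fell in WT mice, and C1qa and C1qc in KO mice. Of the 5 Kupffer genes, Clec4f and Timd4 fell in WT mice and Timd4 alone in KO mice. In WT livers 9 of the 40 genes fell and 1 rose between 5 and 20 months, beside 7.19% of all genes called (4.36% lower and 2.83% higher). The median difference of the 40 was -0.46, against -0.01 over all 12924 genes tested. Of the 40 differences 32 were below 0. The C1q genes are shown first, with the sequences upstream of genes on which the results turn.

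The 3 C1q chains assemble into the recognition unit of the classical complement pathway. Their genes lie side by side on chromosome 4 of GRCm38.p6, C1qb at chr4:136880126-136886200, C1qc at chr4:136889801-136892936 and C1qa at chr4:136895916-136898844. The 250 bases before the start of C1qb (chr4:136886201-136886450, minus strand), C1qc (chr4:136892915-136893164, minus strand), Clec4f (chr6:83656117-83656366, minus strand) and Mmp12 (chr9:7344147-7344396, plus strand) are printed from the RefSeq promoter table of that build. The table counts from the start of 1 transcript, which for C1qc lies a little inside the outer bounds of the gene given above. These windows are shown since these genes moved with age in liver or adipose. So did other genes whose windows are not printed. PU.1, the product of the member Spi1, is a transcription factor of the myeloid lineage that binds purine-rich sites. Capitals mark GAGGAA or its longer form GAGGAAGT, which contains it, on either strand.
C1qb: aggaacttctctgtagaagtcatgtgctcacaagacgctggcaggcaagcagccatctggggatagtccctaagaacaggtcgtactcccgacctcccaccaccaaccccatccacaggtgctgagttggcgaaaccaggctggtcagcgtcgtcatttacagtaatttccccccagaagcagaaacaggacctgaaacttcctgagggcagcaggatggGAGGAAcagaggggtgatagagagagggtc
C1qc: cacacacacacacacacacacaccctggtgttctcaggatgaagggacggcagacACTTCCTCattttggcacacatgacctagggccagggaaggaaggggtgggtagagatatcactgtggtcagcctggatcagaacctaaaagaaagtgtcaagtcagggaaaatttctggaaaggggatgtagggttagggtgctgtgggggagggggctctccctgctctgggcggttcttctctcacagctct
Clec4f: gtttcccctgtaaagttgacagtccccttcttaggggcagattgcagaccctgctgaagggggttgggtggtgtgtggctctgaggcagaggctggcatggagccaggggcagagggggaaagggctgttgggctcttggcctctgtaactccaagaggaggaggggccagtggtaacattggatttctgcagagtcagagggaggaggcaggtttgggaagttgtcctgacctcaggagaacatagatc
Mmp12: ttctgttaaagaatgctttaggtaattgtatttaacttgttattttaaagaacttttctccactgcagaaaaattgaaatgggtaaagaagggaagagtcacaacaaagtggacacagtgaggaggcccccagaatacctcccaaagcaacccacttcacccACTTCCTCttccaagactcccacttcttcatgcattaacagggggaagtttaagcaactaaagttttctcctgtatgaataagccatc
C1qb held GAGGAA as printed, C1qc and Mmp12 held GAGGAAGT on the opposite strand, and Clec4f held neither in this window. A window was found for 31 of the 40 genes. GAGGAA was in the windows of 16 of these 31 genes (51.6%) and of 25.9% of 27025 genes in the table, and GAGGAAGT in 3 (9.68%) and 2.79%. TGACTCA, a site of AP-1 factors, was in 5 (16.1%) and 5.16%. CACGTG, the E-box that Myc and other factors can bind, was in 0 of the 31 and in 6.86% of all genes. Another window of Mmp12 (chr9:7347124-7347373, plus strand), not printed, held TGACTCA on the opposite strand and no GAGGAA. The window of Gpnmb, which also moved with age in KO adipose and liver, held none of these motifs. A match is a string of letters and does not show that a factor binds there.

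C1qa ranged from 40.9 to 113 CPM (median 69.3) in young WT livers, and the old WT livers held 24.6, 36.1, 31.3, 23.4 and 21.4 CPM. All 5 old values lay below all 6 young ones. The difference was -1.30 ± 0.23 (SE, adjusted p = 0.00167). C1qc, whose upstream window holds the longer motif, ranged from 32.5 to 102 CPM (median 57.4) in young WT livers and was 25.5, 28, 31.6, 21.9 and 23.1 CPM in old ones, again without overlap (-1.11 ± 0.22, adjusted p = 0.00402). C1qb averaged 68.8 ± 22.2 CPM (n = 6) and 34.7 ± 6.7 (n = 5), and fell by 0.92 on the log2 scale (adjusted p = 0.00918).

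Clec4f ranged from 69 to 187 CPM (median 132) in young WT livers and was 70, 76.9, 27.2, 58.1 and 50.2 CPM in old ones. Young WT replicate 3, at 69 CPM, was the only young library within the old range, and it was the lowest of its group for all 5 Kupffer genes. It was an Xist library, as was young WT replicate 4, the highest of the group for Clec4f (187 CPM). Clec4f fell by 1.19 ± 0.26 (adjusted p = 0.00718). Timd4, through which Kupffer cells bind dying cells, ranged from 3.28 to 12.5 CPM (median 8.72) in young WT livers and was 3.58, 6.18, 2.74, 1.66 and 4.07 CPM in old ones. It fell by 1.06 ± 0.29 (adjusted p = 0.0268), with the same young library inside the old range. Vsig4, which captures complement-coated particles, averaged 31 ± 9.81 CPM (n = 6) in young and 19.2 ± 4.53 (n = 5) in old WT livers, a difference of -0.64 that was not called (adjusted p = 0.0533). Marco ranged from 6.42 to 79.5 CPM among young WT livers, a wider spread than the other Kupffer genes, and was 7.35, 15.1, 18.6, 5.79 and 6.21 CPM in old ones (-1.43, adjusted p = 0.0863). Cd5l averaged 110.1 ± 48.1 and 64.8 ± 15.5 CPM (-0.63, adjusted p = 0.181).

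Among the other genes of WT livers, 4 fell. The lysosomal protease Ctss averaged 44.8 ± 10.4 CPM in young and 22.8 ± 3.09 CPM in old WT livers (-0.92, adjusted p = 0.00493). Csf1r, the receptor on which macrophage survival depends, went from 69.2 ± 18.5 to 37.1 ± 6.41 CPM (-0.84, adjusted p = 0.0163). The Fc receptor Fcgr3 (-0.81, adjusted p = 0.0251) and Tyrobp, an adaptor of activating receptors such as Trem2 (-0.81, adjusted p = 0.0278), fell too. The fractalkine receptor Cx3cr1, carried by monocytes and by macrophages derived from them, rose by 1.03 ± 0.27 (adjusted p = 0.0262). It ranged from 0.433 to 1.92 CPM (median 0.691) in young WT livers and was 1.17, 2.35, 6.98, 2.16 and 3.03 CPM in old ones, where replicate 3 was highest. Ccr2, the receptor that draws monocytes out of the blood, averaged 1.17 ± 1.2 and 2.62 ± 1.89 CPM (0.78, adjusted p = 0.133). The median of the 5 lipid-associated genes was 0.18, with none called. The Kupffer genes summed to 133 to 394 CPM (lowest and highest library) in young and 129 to 210 CPM in old WT livers. The endothelial and lymphatic list covered 240.5 to 408 CPM in young and 220.3 to 333 CPM in old, and the fibroblast list 145 to 344 CPM in young and 193 to 326 CPM in old WT livers. Their part in the result was not tested. The calls of C1qa, C1qb, C1qc, Ctss, Clec4f and Csf1r held in all 17 alternatives, while Timd4 was not called without old WT replicate 3 or 4, without young WT replicate 1 or 4, or with no expression filter (adjusted p 0.0055 to 0.082 over its alternatives). Without young WT replicate 1, 6 of the 40 genes were called in place of 10. They were the 6 whose calls held throughout, so Cx3cr1, Fcgr3 and Tyrobp lost their calls there together with Timd4.

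**Figure D2:**
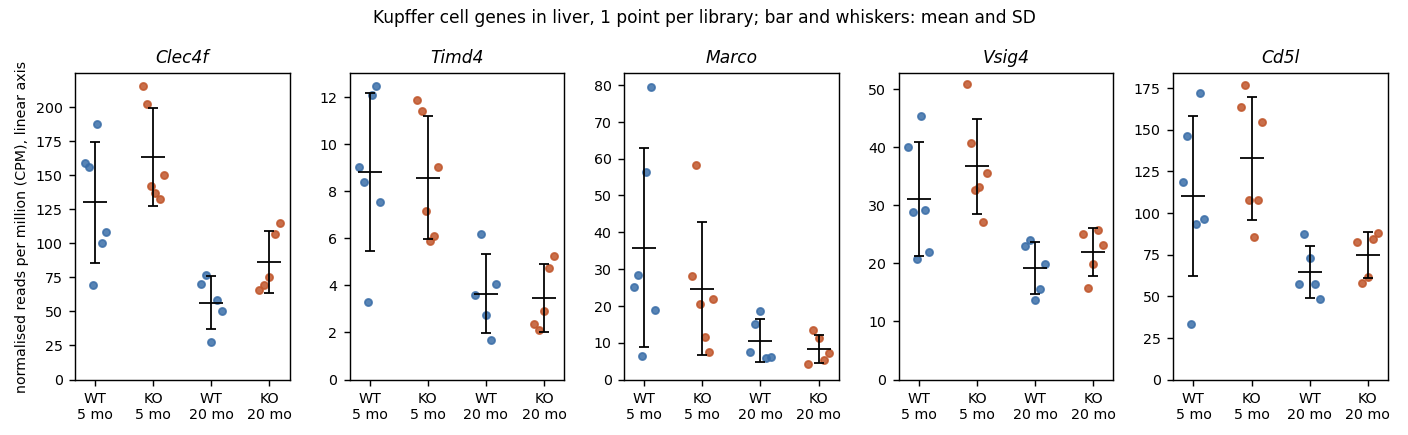
Levels of the 5 Kupffer cell genes in liver in CPM on a linear axis, 1 point per library, with the mean and SD of each group (6 libraries at 5 months, 5 at 20 months). The mean of the old group lies below that of the young group for all 5 genes in both genotypes. Only the differences of Clec4f and Timd4 in WT and of Timd4 in KO mice were called. In addition 1 young WT library lies low for all 5 genes.

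In KO livers 6 of the 40 genes fell and 1 rose with age, beside 2.99% of all genes called (1.31% lower and 1.68% higher). The median difference was -0.53, against -0.02 over all genes. C1qc ranged from 56.3 to 96.7 CPM (median 71.5) in young KO livers and was 29, 34.9, 30.8, 39.6 and 51 CPM in old ones, without overlap (-1.0, adjusted p = 0.0176). C1qa ranged from 63.3 to 126 CPM (median 76.9) and was 34.2, 41.3, 39, 52.9 and 58.4 CPM in old ones, also without overlap (-0.95, adjusted p = 0.0265). Timd4 ranged from 5.9 to 11.9 CPM (median 8.1) in young KO livers and was 2.36, 2.1, 2.92, 4.75 and 5.25 CPM in old ones. Its groups did not overlap, and it fell by 1.11 on the log2 scale (adjusted p = 0.0366). Ctss (-0.82, adjusted p = 0.02), Csf1r (-0.79, adjusted p = 0.0379) and Mrc1 (-0.74, adjusted p = 0.0344) fell as well.

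Clec4f in KO livers ranged from 133 to 215 CPM (median 146) at 5 months and was 65.9, 69.5, 74.9, 107 and 115 CPM at 20 months. All 5 old values lay below all 6 young ones, with a difference of -0.92 that was not called (adjusted p = 0.052). Vsig4 differed by -0.71 (adjusted p = 0.0545), Cd5l by -0.79 (adjusted p = 0.139) and Marco by -1.30 (adjusted p = 0.17). The gene that rose was Gpnmb, from 0.615 to 1.56 CPM (median 0.939) in young KO livers to 10.1, 5.83, 2.25, 1.58 and 2.19 CPM in old ones, a difference of 1.19 ± 0.32 (adjusted p = 0.0446) with no overlap. Replicates 1 and 2 gave the highest values. Mmp12 was also highest in replicates 1 and 2, at 7.96, 3.88, 2.97, 2.45 and 3.13 CPM in old KO livers against 1.27 ± 0.725 CPM (n = 6) in young ones, without overlap but not called (1.13, adjusted p = 0.0779). The KO liver count rested on single libraries: it was 1 without old replicate 1 or young replicate 1, 2 without old replicate 2 or 5 or young replicate 2, 3 without old replicate 4 or young replicate 3 or 6, and 12 without young replicate 5. DESeq2 on the recovered reads called 13, and 3 were called with no expression filter.

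In adipose tissue 4 of the 5 lipid-associated genes rose with age in KO mice and 1 of the 5, Mmp12, in WT mice. Of these 5 calls only that of Mmp12 in KO mice held in all 18 alternatives, and the KO calls of Itgax, Gpnmb and Atp6v0d2 were lost in 4 or more of them. In old KO adipose 8 of 39 tested genes had risen and 1 had fallen, beside 14.2% of all genes called (10.5% higher and 3.75% lower). Clec4f, at 0 to 1.05 CPM, was the gene not tested in adipose. The median of the 39 was 0.28 against 0.06 over all 14286 genes, while that of the 5 lipid-associated genes was 2.10 and that of the 4 tested Kupffer genes -0.88. In WT adipose 2 of 39 genes rose and none fell, beside 10.8% of all genes called (7.41% higher), and the 5 lipid-associated genes had a median of 1.49.

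Mmp12, the macrophage elastase with an upstream window printed above, ranged from 28.6 to 64.2 CPM (median 37.8) in young WT adipose and was 74.4, 158, 379, 120.2 and 131 CPM in old WT adipose. All 5 old values lay above all 6 young ones, and it rose by 1.90 ± 0.59 (adjusted p = 0.0423). In KO adipose it ranged from 19.1 to 115 CPM (median 48.4) at 5 months and was 636, 384, 33.1, 321 and 707 CPM at 20 months, a rise of 2.58 ± 0.59 (adjusted p = 0.00836). Of the old KO libraries 4 lay above every young one, and replicate 3 lay among the young. In WT mice it was not called without the 4 young Xist libraries of the tissue (adjusted p = 0.14).

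Itgax, an integrin chain of lipid-laden macrophages and dendritic cells, ranged from 5.19 to 36.3 CPM (median 10.5) in young KO adipose and was 192, 74.1, 6.99, 113 and 152 CPM in old KO adipose. It rose by 2.47 ± 0.68 (adjusted p = 0.0232). In WT adipose it ranged from 2.98 to 30.8 CPM (median 9.94) at 5 months and was 18.4, 46.4, 106, 32.3 and 27 CPM at 20 months, which was not called (1.78, adjusted p = 0.0895). The summed dendritic cell markers covered 17.9 to 38.1 CPM in young KO, 34.2 to 58.5 in old KO, 25.1 to 53.3 in young WT and 32.8 to 56.9 in old WT adipose.

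Markers of other cells moved with age in adipose too. The T cell list covered 6.71 to 17.9 CPM in young and 20.3 to 75 CPM in old WT adipose, without overlap, and 17.1 to 31.5 and 23.6 to 34.7 CPM in KO adipose. The B and plasma cell list went from 26.5 to 109 CPM to 82.8 to 355 CPM in WT and from 34.4 to 109.7 CPM to 48.3 to 162 CPM in KO adipose. The hepatocyte list was lower in old adipose, from 478 to 4881 CPM to 155 to 549 CPM in WT and from 1243 to 3837 CPM to 109 to 1396 CPM in KO. The part of these lists and of the dendritic cell list in the result was not tested.

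Gpnmb, a lysosomal glycoprotein of lipid-laden macrophages, ranged from 101 to 650.4 CPM (median 153) in young KO adipose and was 1937, 698, 111, 1128 and 1856 CPM in old KO adipose, a rise of 2.10 ± 0.63 (adjusted p = 0.0322). Young KO replicate 6, at 650.4 CPM, stood apart from the other 5, and old replicate 3 was within their range. In WT adipose it ranged from 58.5 to 237 CPM (median 133) in the young and was 157, 466, 1041, 274 and 296 CPM in the old (1.49, adjusted p = 0.118). Atp6v0d2, a subunit of the pump that acidifies lysosomes, averaged 24.7 ± 17.6 CPM in young KO adipose and was 195, 92.9, 16.3, 119 and 185 CPM in old KO adipose, a rise of 2.07 ± 0.55 (adjusted p = 0.0183). In WT it averaged 19.6 ± 9.11 and 62.6 ± 46 CPM (1.47, adjusted p = 0.0803). Trem2, the receptor that senses lipids at the cell surface, did not pass in either genotype: 27.7 ± 12.7 CPM in young KO and 155, 100.3, 12.9, 97 and 137 CPM in old KO adipose (1.58, adjusted p = 0.0574), and 28.6 ± 17.3 and 52.2 ± 38.7 CPM in WT (0.78, adjusted p = 0.346).

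The 5 genes shared their extreme library in the old groups but not in the young ones. Among old KO libraries replicate 3 was the lowest for all 5, at levels seen in young mice, and among old WT libraries replicate 3 was the highest for all 5. These libraries were also the lowest and highest of their groups for the summed common macrophage genes (2020 and 3905 CPM). Young KO replicate 4 was the highest of its group for Trem2 (45.9 CPM) and the lowest for Gpnmb (101 CPM). Young WT replicate 6 was the highest for Gpnmb (237 CPM) and the lowest for Trem2 (11.1 CPM). The sum of the 5 genes covered 126 to 326 CPM in young WT, 199 to 899 in young KO, 293 to 1781 in old WT and 180.0 to 3114 in old KO adipose. Of the 4 receptors of resident macrophages, old KO replicate 3 had the highest Cd163 of its group (105 CPM, with 17 to 36.7 in the other 4) and the highest Lyve1 (129 CPM, with 42 to 79.4). Its Mrc1 (175 CPM, with 134 to 224 in the other 4) and Folr2 (56.9 CPM, with 51.7 to 107) lay within the range of the others. No test was made of this 1 library.

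**Figure D3:**
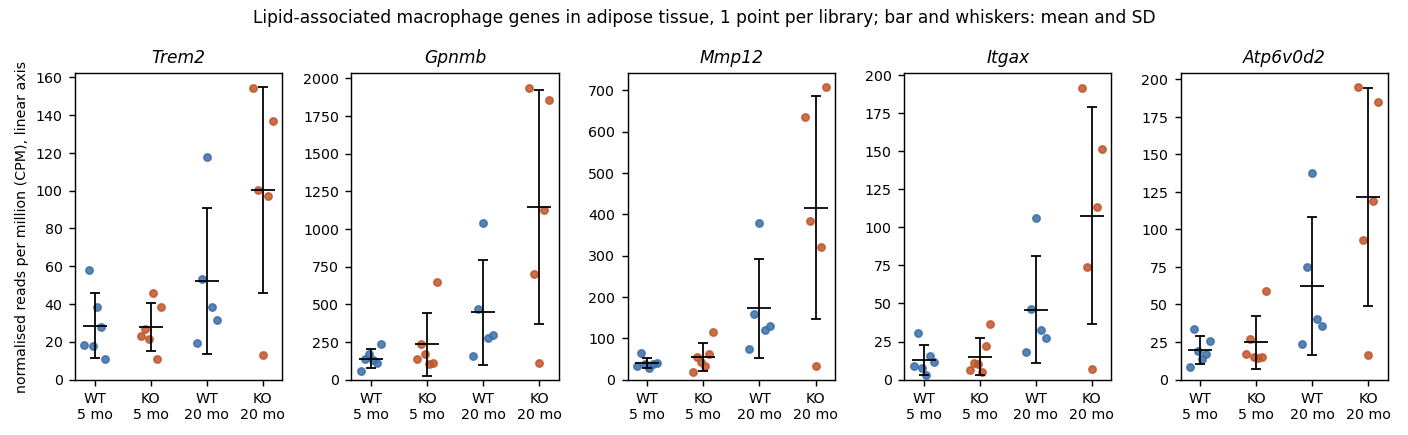
Levels of the 5 lipid-associated macrophage genes in adipose tissue in CPM on a linear axis, 1 point per library, with the mean and SD of each group (6 libraries at 5 months, 5 at 20 months). In old KO adipose 4 of 5 libraries lie above the young KO libraries for each gene and 1 lies among them.

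The other genes that rose with age in KO adipose were Lgals3, Cd84, Adgre1 and Mpeg1. Lgals3, the lectin galectin-3, averaged 251 ± 125 CPM in young KO adipose and was 851, 662, 219, 616 and 885 CPM in old KO adipose (1.40, adjusted p = 0.0352). Cd84, a homophilic receptor of leukocytes, averaged 36.9 ± 9.95 CPM and was 159, 74.1, 41.5, 97.7 and 137 CPM in the old (1.34, adjusted p = 0.0106). It also rose in WT adipose, from 24.1 ± 6.61 to 54.4 ± 29.1 CPM (1.04, adjusted p = 0.0414). Adgre1, which encodes the macrophage antigen F4/80, averaged 56 ± 17 CPM in young and 138 ± 65.5 CPM in old KO adipose (1.19, adjusted p = 0.026), and Mpeg1, which encodes the pore-forming protein perforin-2, 212 ± 68.3 and 509.5 ± 231 CPM (1.18, adjusted p = 0.0259). Replicate 3 was the lowest old KO library for all 4. Fcgr2b, the inhibitory Fc receptor, fell from 74.3 ± 26.2 to 43.8 ± 3.7 CPM (-0.67, adjusted p = 0.0292). The C1q genes, which fell in liver, had medians of 0.16 in KO and -0.25 in WT adipose, with none called.

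The count in KO adipose moved with single libraries. It was 14 without old replicate 3, 2 without old replicate 1, 4 or 5, and 3 without young replicate 1. Without old replicate 1, 4 or 5 in turn, Itgax (adjusted p 0.0632 to 0.0811), Gpnmb (0.0795 to 0.105) and Atp6v0d2 (0.0504 to 0.0683) were not called, and Mmp12 (0.0246 to 0.037) was. Itgax and Gpnmb also lost their calls without young replicate 1, and Gpnmb without young replicate 4 or with no expression filter. Without the young Xist libraries the count was again 9 with other members: Itgax (2.15, adjusted p = 0.0522), Gpnmb (1.85, 0.0841), Atp6v0d2 (1.81, 0.0553) and Fcgr2b (-0.40, 0.112) were no longer called. Without old replicate 3 all 5 lipid-associated genes passed, with Mmp12 at 3.35 and Trem2 at 2.21 (adjusted p = 0.00385 for Trem2). Without the 4 epididymis libraries 11 genes were called, but Lgals3 (0.94, adjusted p = 0.159), Cd84 (1.09, 0.061), Adgre1 (0.79, 0.168) and Mpeg1 (1.06, 0.0702) were not. There 18 of 39 differences were above 0, and the median was -0.15 in place of 0.28. In WT adipose the 2 calls, Cd84 and Mmp12, fell to 0 without the young Xist libraries and without young replicate 1, 3, 4 or 5 or old replicate 2, 3 or 5, and to 1 without old replicate 4.

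In muscle the macrophage genes were lower in old WT mice. Of 30 genes tested 17 fell and none rose, beside 18.6% of all genes called (7.68% lower), and the median was -0.99 against 0.03 over all 13237 genes. All 3 C1q genes and all 4 resident scavenger receptors fell, as did 6 of 14 common genes and 3 of 5 Fc genes. Of these, C1qc, Mrc1, Lyve1, Fcgr2b and Fcgr3 kept their call in every alternative. Without old WT replicate 2 or 4 the count of 17 went down to 7. The 10 genes not tested in muscle were Aif1, Fcgr4, Trem2, Mmp12, Atp6v0d2 and the 5 Kupffer genes. In KO muscle none of the 30 was called, beside 5.57% of all genes. There 9 had an unadjusted p under 0.05 by limma, beside 25.6% of all genes, 27 were below 0 and the median was -0.38, while DESeq2 called 2 and edgeR 0.

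Gpnmb, which rose with age in KO adipose, fell in WT muscle. Young WT muscle held 17.1, 19.9, 13.7, 15.3, 9.32 and 17 CPM and old WT muscle 6.63, 3.45, 8.82, 4.6 and 3.55 CPM, without overlap (-1.39 ± 0.20, adjusted p = 0.000663). KO muscle held 14.9, 14.5, 13.9 and 15.7 CPM at 5 months and 11.9, 8.31, 8.24, 10.9 and 6.87 CPM at 20 months, also without overlap but not called (-0.65, adjusted p = 0.0871). Mrc1, the mannose receptor, ranged from 9.44 to 35.2 CPM (median 19.4) in young WT muscle and was 8.66, 6.97, 12.8, 4.25 and 8.32 CPM in the old (-1.21 ± 0.26, adjusted p = 0.00631). In KO muscle it was 16.6, 16.7, 14.1 and 17.6 CPM at 5 months and 17.3, 8.88, 14.1, 17.4 and 11.1 CPM at 20 months. Old WT replicate 3 was the only old WT library within the young WT range for Mrc1.

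Lyve1, a hyaluronan receptor of lymphatic vessels and of macrophages along blood vessels, ranged from 4.43 to 37.8 CPM (median 12.4) in young WT muscle and was 4.94, 1.76, 5.05, 2.9 and 2.08 CPM in the old (-1.72 ± 0.40, adjusted p = 0.00873). In KO muscle it was 23.9, 30.6, 17.4 and 16.7 CPM in the young and 17.4, 6.53, 7.23, 5.51 and 4.19 CPM in the old (-1.44, adjusted p = 0.0573). C1qc ranged from 10.3 to 43.5 CPM (median 16.3) in young WT muscle and was 6.56, 5.21, 10.9, 4.55 and 6.65 CPM in the old (-1.38 ± 0.32, adjusted p = 0.00873). C1qa (-1.25, adjusted p = 0.0235) and C1qb (-1.24, adjusted p = 0.0186) fell by similar amounts. The lysosomal membrane protein Laptm5 fell by 1.08 without overlap between ages (adjusted p = 0.0184). The others that fell were Cd68 (-1.54), Cd14 (-1.31), Lgals3 (-1.25), Cd163 (-1.23), Itgam (-1.21), Fcgr2b (-1.19), Fcgr3 (-1.15), Folr2 (-1.07), Fcer1g (-0.84) and Cd84 (-0.78). Cd68, a lysosomal glycoprotein of phagocytes, was 21.6 CPM in old WT replicate 1 and 1.45 to 3.37 CPM in the other 4.

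Markers of other cells also differed between these muscle groups. From young to old WT muscle the fibroblast list went from 522 to 1289 CPM (lowest and highest library) to 420 to 716 CPM, the endothelial and lymphatic list from 288 to 418 CPM to 231 to 350 CPM, and the mast cell list from 12.6 to 59.9 CPM to 7.9 to 23.6 CPM. Their part in the result was not tested. The calls of Gpnmb, Mrc1, Lyve1, C1qc, Fcgr2b and Fcgr3 held in all 19 alternatives, while the count was 7 without old replicate 2 or 4, 11 without young replicate 2 or 4, and 8 without the 2 libraries with hepatocyte or lymphocyte transcripts. Of the Kupffer genes, Clec4f (5.58 CPM), Cd5l (4.61 CPM) and Vsig4 (3.27 CPM) were detected in old WT replicate 2, where the hepatocyte list summed to 2777 CPM against a group median of 4.41 CPM. Marco (17.9 CPM), Cd5l (5.9 CPM) and Timd4 (4.72 CPM) were detected in young KO replicate 2, where the T cell list summed to 25.9 CPM against a group median of 1.91 CPM.

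**Figure D4:**
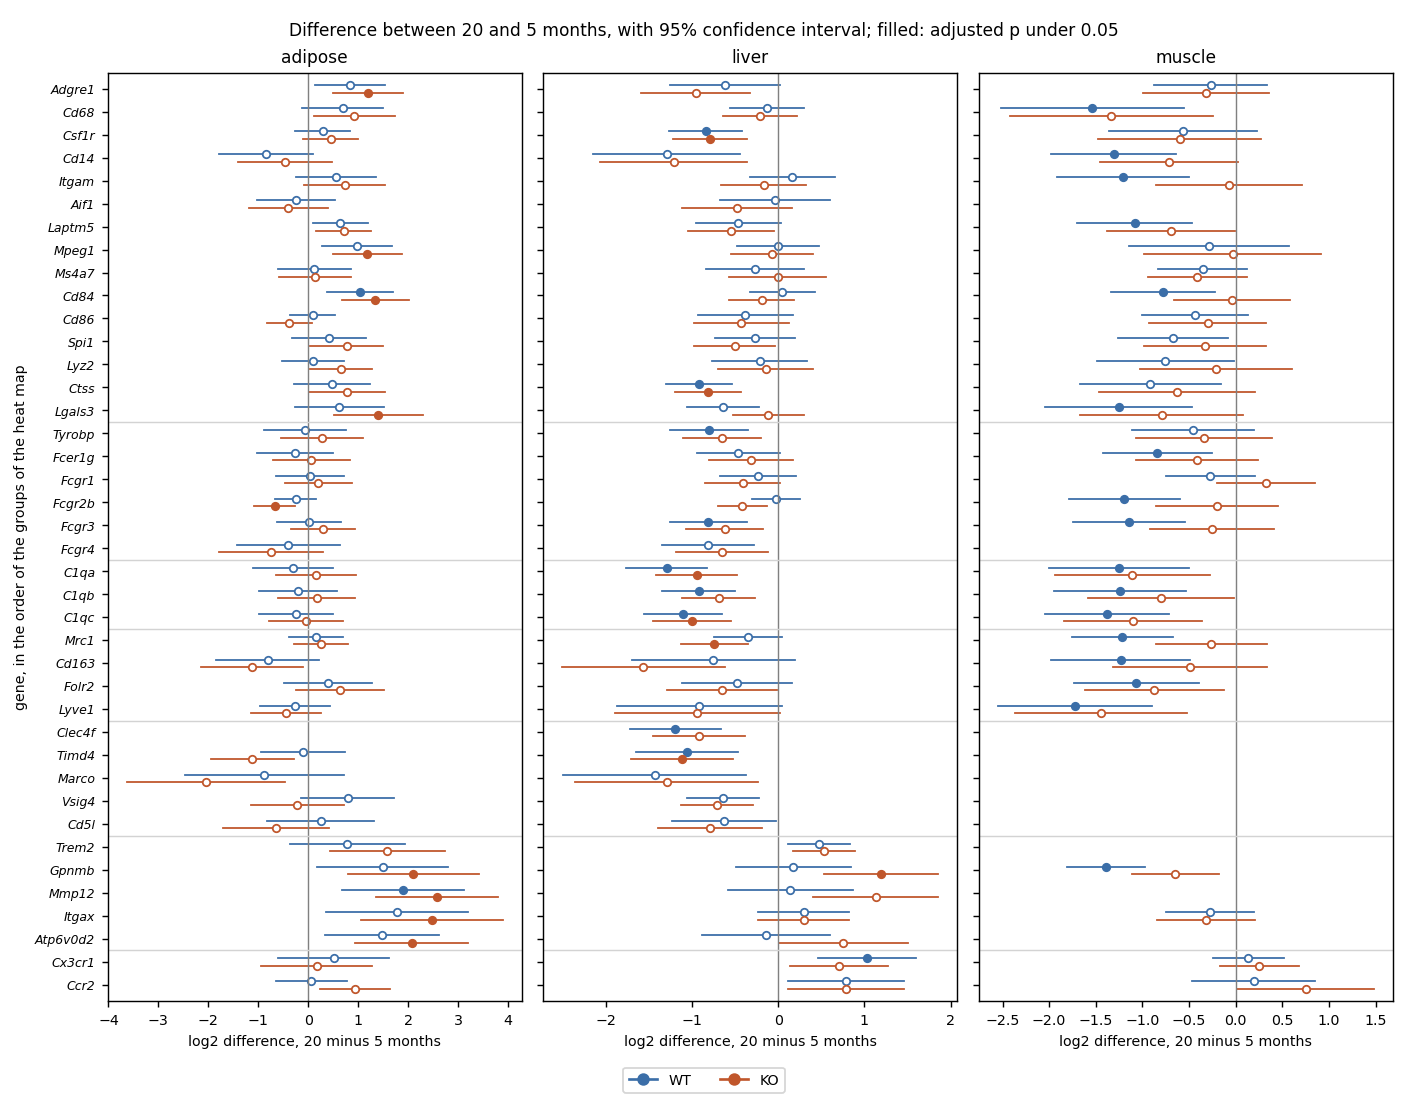
Difference between 20 and 5 months on the log2(CPM + 1) scale with its 95% confidence interval for each gene tested (rows, by role) in adipose tissue, liver and muscle, WT and KO in separate colours, filled where the adjusted p is under 0.05. The lipid-associated genes lie right of 0 in adipose, the Kupffer and C1q genes left of 0 in liver, and most genes left of 0 in muscle.

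Whether the age difference itself differed between tissues was tested in a fit of all 64 libraries, a comparison added after the data were seen. In WT mice 12 of 30 genes differed between adipose and muscle, all with the higher value in adipose, beside 16.4% of all genes called (7.86% in that direction). Gpnmb differed by 2.88, Cd68 by 2.22, Itgax by 2.06 and Lgals3 by 1.88. In KO mice 7 genes differed between adipose and muscle, beside 7.93% of all genes (5.84% in that direction), led by Itgax (2.79) and Gpnmb (2.75). Between adipose and liver 9 genes differed in KO mice, beside 11.3% of all genes (8.02% in that direction), led by Itgax (2.17) and Adgre1 (2.14), and 0 in WT mice, beside 4.01%. In WT mice 11 genes had an unadjusted p under 0.05 there, beside 19.6% of all genes, and DESeq2 called 2. Between liver and muscle Fcgr2b alone differed in WT mice (1.17, adjusted p = 0.023), beside 3.1% of all genes (1.42% in that direction), and 0 genes in KO mice, beside 1.32%. In KO mice 1 gene had an unadjusted p under 0.05, beside 14.4% of all genes, and DESeq2 called 1. With each library left out in turn the counts covered 8 to 16 (WT) and 4 to 12 (KO) for adipose and muscle, 0 to 2 and 2 to 12 for adipose and liver, and 0 to 2 and 0 for liver and muscle. The Kupffer genes, Trem2, Mmp12 and Atp6v0d2 were not expressed widely enough to enter this fit.

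No macrophage gene differed between KO and WT mice by limma in any of the 3 tissues at either age. The share of all genes called was 0.105% in adipose at 5 months, 0% in adipose at 20 months, 0.0696% in liver at 5 months, 0.0232% in liver at 20 months, 0% in muscle at 5 months and 0.0302% in muscle at 20 months. The numbers with an unadjusted p under 0.05 were 7 of 39 and 8 of 39 in adipose, 8 of 40 and 10 of 40 in liver, and 1 of 30 and 16 of 30 in muscle, at 5 and 20 months in turn. Over all genes these shares were 11.8% and 2.25% in adipose, 6.94% and 5.8% in liver, and 4.1% and 13.8% in muscle. edgeR called 0 in each of the 6, and DESeq2 called 4 in adipose at 5 months, 1 in liver at 5 months, 1 in muscle at 20 months and 0 in the other 3.

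Most of the genes were higher in KO than in WT mice without passing the test singly. In old muscle 30 of 30 differences were above 0, with a median of 0.67 against -0.03 over all genes. In old adipose 34 of 39 were above 0 (median 0.63 against 0.01), and in old liver 31 of 40 (0.21 against 0.01). At 5 months the counts were 37 of 39 in adipose (0.42 against -0.04), 34 of 40 in liver (0.27 against 0.01) and 27 of 30 in muscle (0.27 against 0.01). With edgeR or DESeq2 the muscle counts were 29 of 30 at 20 months and 20 of 30 at 5 months, and without the 4 young Xist libraries the adipose count at 5 months was 27 of 39 (median 0.21). Without the epididymis libraries that count was 36 of 39 with a median of 0.83, and 23 genes in place of 7 had an unadjusted p under 0.05. Without the hepatocyte or lymphocyte libraries the young muscle count was 21 of 30 with a median of 0.09. Markers of other cells differed as well: in old muscle the adipocyte list (1255 to 1982 CPM in KO and 1064 to 1151 CPM in WT) and the T cell list (1.78 to 3.71 and 0.338 to 1.45 CPM) did not overlap between genotypes, and their part in the result was not tested. The comparisons of old KO with old WT and of old with young KO mice use the same old KO libraries. The genes share cells and libraries and are not independent of each other, so no test was made on the counts.

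In old muscle Itgam, an integrin chain of myeloid cells, was 15.1, 3.05, 4.72, 7.15 and 3.81 CPM in KO and 2.98, 1.09, 3.89, 0.9 and 1.78 CPM in WT mice (1.22, 95% confidence interval 0.48 to 1.96, adjusted p = 0.295). The highest value, in KO replicate 1, came with a neutrophil list sum of 731 CPM, against 2.84 CPM in the lowest library of that group. Without the 3 libraries rich in neutrophil transcripts the median over the 30 genes was 0.66. Fcgr2b was 7.51, 4.57, 8.06, 4.91 and 3.65 CPM in KO and 1.49, 3.52, 3.89, 0.85 and 2.13 CPM in WT mice (1.04, interval 0.42 to 1.66, adjusted p = 0.295). WT replicate 3 overlapped the KO range. Gpnmb, with the values given above, differed by 0.72 (interval 0.28 to 1.16, adjusted p = 0.295). The groups did not overlap for 2 of the 30 genes, both higher in KO, beside 1.28% of all genes: Cd84 at 2.38 ± 0.583 CPM in KO and 0.884 ± 0.489 CPM in WT (n = 5 each), and Itgax at 1.01 ± 0.456 and 0.279 ± 0.134 CPM.

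In old adipose the lipid-associated genes differed between KO and WT by 0.82 (Trem2), 0.83 (Atp6v0d2), 0.89 (Itgax), 0.94 (Mmp12) and 1.13 (Gpnmb), each with an adjusted p of 1. The interval for Gpnmb was -0.23 to 2.50 and that for Mmp12 -0.34 to 2.22. Without KO replicate 3 these differences were 1.44 to 1.84, with adjusted p 0.641 to 0.835. The groups did not overlap for 2 of 39 genes, both higher in KO, beside 0.644% of all genes. They were Cd14, the lipopolysaccharide co-receptor, at 41.2 ± 10.3 CPM in KO and 19.9 ± 4.93 CPM in WT (1.02, adjusted p = 1), and Vsig4 at 18.7, 16.9, 18.9, 14.4 and 19.6 CPM in KO and 11.4, 11.1, 13.3, 9.74 and 10.8 CPM in WT (0.61, adjusted p = 1).

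In young adipose the largest differences were those of Vsig4 and Marco, followed by the Fc receptor Fcgr4 (1.14, adjusted p = 0.367), Cd5l and Timd4. Some of these genes, named here for Kupffer cells, are also carried by resident macrophages of the body cavities and fat. Vsig4 was 40.8, 57.5, 19.9, 32, 3.66 and 12.3 CPM in KO and 17, 5.91, 4.53, 5.41, 3.56 and 5.29 CPM in WT (1.61, interval 0.73 to 2.50, adjusted p = 0.172). Marco was 67.7, 65.6, 11.3, 53.6, 0.382 and 4.19 CPM in KO and 2.32 to 13 CPM (median 5.1) in WT (1.42, adjusted p = 0.446). Timd4 (0.95, adjusted p = 0.354) and Cd5l (1.06, adjusted p = 0.397) were low in the same KO libraries. KO replicates 5 and 6 were the lowest of their group for Marco, Timd4, Cd5l and Vsig4, and both held epididymis transcripts, while KO replicate 1, which held them too, was not low. Fcgr2b was 71.8, 68.5, 94.1, 113, 37.7 and 61.1 CPM in KO and 35.7 to 45.8 CPM in WT, with 5 of 6 KO libraries above all WT libraries (0.81, interval 0.42 to 1.20, adjusted p = 0.107). DESeq2 called Fcgr2b (adjusted p = 0.00133), Vsig4 (0.00186), Marco (0.0267) and Fcgr4 (0.0398). Without the 4 epididymis libraries limma called Vsig4 (2.24) and Fcgr2b (1.13), each with an adjusted p of 0.0177, and without KO replicate 5 it called 2 genes as well. The fit without epididymis libraries kept only KO replicates 2, 3 and 4, of which 3 and 4 were Xist libraries. It kept WT replicates 1 to 5, of which 3 and 4 were Xist libraries too. Without the Xist libraries limma called neither Vsig4 (1.35, adjusted p = 0.152) nor Fcgr2b (0.595, adjusted p = 0.0751). The hepatocyte list summed to 1243 to 3837 CPM in these KO and 478 to 4881 CPM in these WT libraries, and its part in the result was not tested. Clec4f was at 0 to 0.996 CPM in the same libraries.

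In liver no Kupffer gene was called between the genotypes. At 5 months the differences were 0.38 for Clec4f (interval -0.13 to 0.88), 0.01 for Timd4 (-0.55 to 0.58), -0.42 for Marco (-1.44 to 0.59), 0.26 for Vsig4 (-0.13 to 0.66) and 0.38 for Cd5l (-0.20 to 0.96). At 20 months they were 0.65 for Clec4f (0.10 to 1.20), -0.04 for Timd4 (-0.65 to 0.58), -0.28 for Marco (-1.39 to 0.83), 0.19 for Vsig4 (-0.24 to 0.63) and 0.22 for Cd5l (-0.42 to 0.85). At 20 months the smallest adjusted p was that of Lgals3, at 8.78, 8.02, 7.72, 7.72 and 6.85 CPM in KO and 3.64, 4.65, 5.25, 3.76 and 3.33 CPM in WT livers, without overlap (0.79, interval 0.36 to 1.23, adjusted p = 0.40). Fcgr3 (0.69, adjusted p = 0.745) and C1qa (0.70, adjusted p = 0.75) followed. Mmp12 did not overlap either (1.03, adjusted p = 0.75), which made 2 of 40 genes higher in KO without overlap, beside 1.45% of all genes. At 5 months Fcgr2b (0.49, adjusted p = 0.251), Atp6v0d2 (-1.03, adjusted p = 0.477) and Cd163 (1.16, adjusted p = 0.558) had the smallest p.

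**Figure D5:**
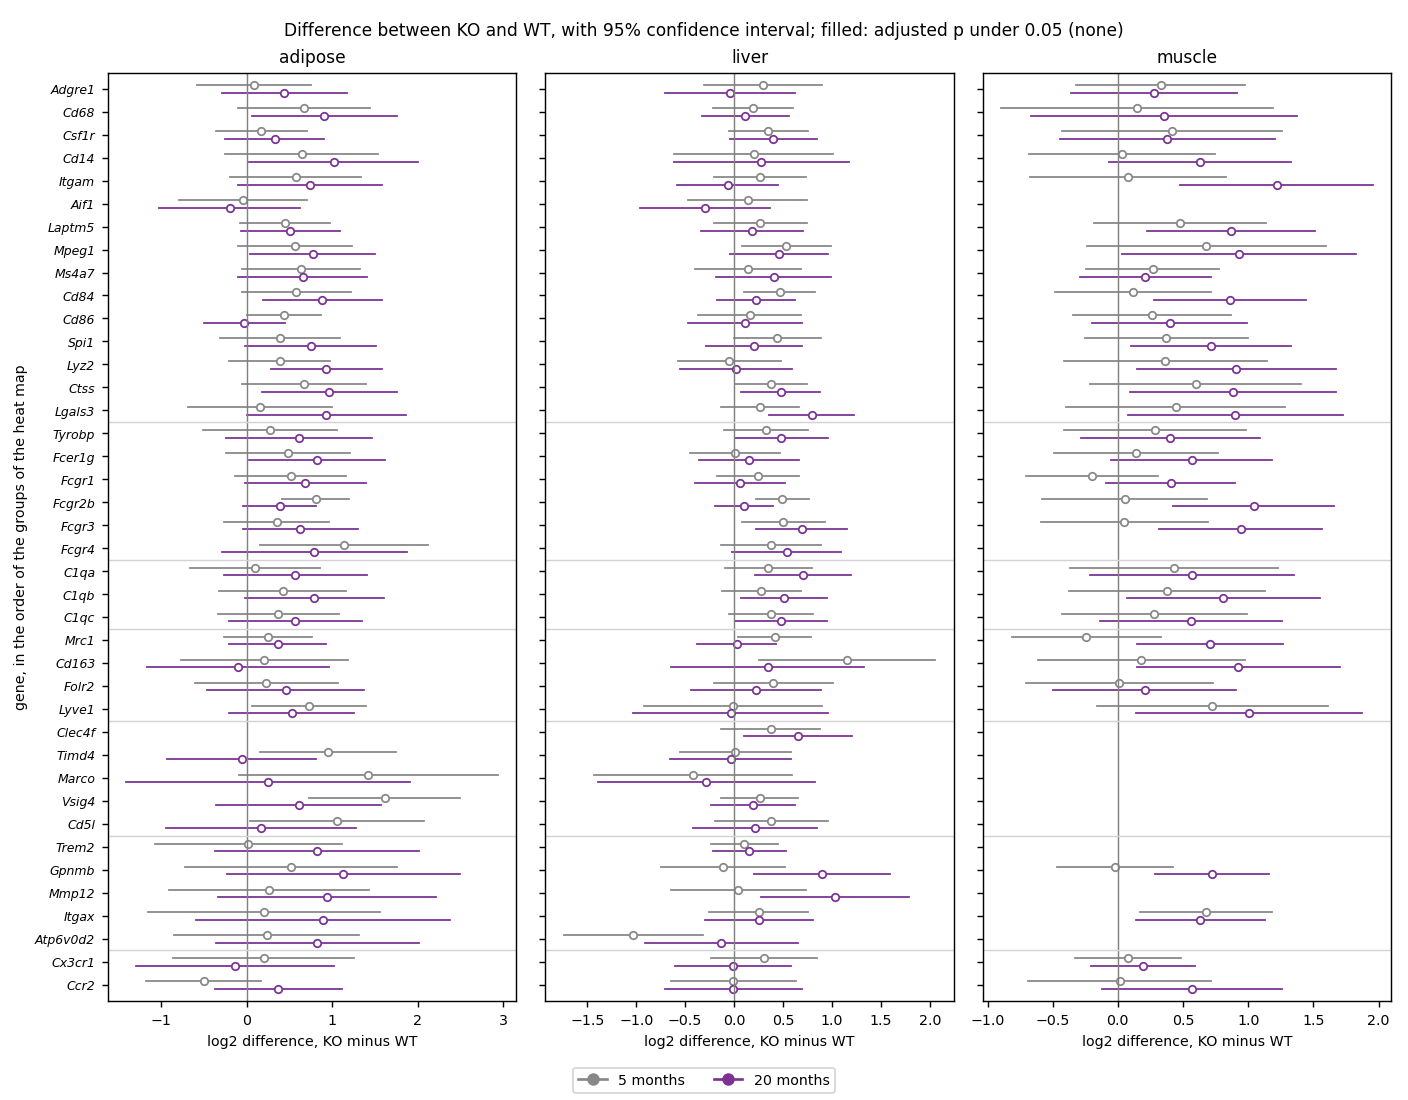
Difference between KO and WT on the log2(CPM + 1) scale with its 95% confidence interval for each gene tested (rows, by role) in adipose tissue, liver and muscle, with 5 and 20 months in separate colours. No point is filled because no adjusted p is under 0.05, and in old muscle all 30 points lie right of 0.

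Whether the age difference differed between genotypes was tested as an interaction, with 0 calls per tissue by limma, by edgeR and by DESeq2, beside 0% of all genes by limma. The numbers at an unadjusted p under 0.05 were 0 in adipose (2.85% of all genes), 1 in liver (3.92%) and 4 in muscle (3.31%). The 1 in liver was Gpnmb, whose age difference was 1.01 larger in KO mice (adjusted p = 0.991). The 4 in muscle were Mrc1 (0.95), Gpnmb (0.74), Fcgr2b (0.99) and Itgam (1.14), each with an adjusted p of 0.999. So the 17 calls in WT and 0 in KO muscle, and the 2 in WT and 9 in KO adipose, were not shown to differ between genotypes.

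Related genes outside the 40 were counted from 4 lists. Of 23 genes of lysosomes and lipid handling, 7 rose with age in KO adipose, beside 10.5% of all genes, and 1 in WT adipose, beside 7.41%, and none fell. Lipa, the acid lipase of lysosomes, rose in both, from 96.2 ± 32.6 to 229 ± 99.7 CPM in WT (1.21) and from 118 ± 29.7 to 343 ± 155 CPM in KO (1.43). The cathepsins Ctsk (1.42) and Ctsb (1.14) rose in KO adipose. In WT liver 4 of the 23 fell with age, beside 4.36% of all genes, among them Ctsl (-1.21) and Ctsz (-0.52), and in KO liver the fatty acid transporter Cd36 rose (1.77), 1 of 23 beside 1.68% of all genes. In WT muscle the cholesterol exporter Abcg1 (-1.21), Ctsl (-0.97) and Grn (-0.52) fell, 3 of 23 beside 7.68% of all genes, and 1 gene rose. Of the lineage transcription factors, Zeb2 rose with age in KO adipose (1.15) and Runx1 in WT adipose (0.78). In WT muscle Cebpb fell (-1.55) while Maf (1.11) and Bhlhe41 (1.26) rose, with 2 of 14 rising and 2 falling, beside 18.6% of all genes in either direction. Of 11 recruitment and survival ligands tested in adipose, the chemokine Ccl12 fell with age in KO mice (-1.40), beside 3.75% of all genes. None of the related genes was called between KO and WT in any tissue or age.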

How the data were processed

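RNA-seq libraries of the 3 tissues were made from poly-A RNA with a strand-marking kit, per the labels' protocols. The aligner, the counter, and the use of strand and of reads matching several genes are not given in the sources used here, which bears on Fcgr2b, Fcgr3, Fcgr4 and Lyz2, whose relatives share sequence. The genome build was GRCm38.p6 (mm10), per the submitters' processing notes.

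The authors deposited a signal per gene and library, labelled CPM. The columns summed to between 529294 and 1640180 rather than to a common total, so each library carries a further scaling factor. Whole reads were recovered from the deposited values, and 100% came out whole within a tolerance of 0.1, which gives the depths in the report. No 2 libraries of a group agreed within sampling noise (chi-square over its degrees of freedom was 14.5 or more). Of 36333 entries 1 repeated a gene ID and 996 had no symbol.

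Each tissue was fitted with limma 3.58.1 in R 4.3.3 on log2(CPM + 1) over its 4 groups, with an intensity trend, for genes that passed 1 CPM in a number of libraries no smaller than the smallest group of the fit, and Benjamini-Hochberg adjustment over all genes tested. Reads were also simulated from each gene's mean over all libraries of the tissue, KO included, with a dispersion of 0.1 for every gene. Changes were placed between the young and old WT groups. There limma recovered 100% of 4-fold changes in each tissue and 44% (adipose, 14286 genes), 41% (liver, 12924) and 48% (muscle, 13237) of 2-fold changes. The dispersion was set and not estimated, so these shares do not show what was recoverable at the spread of these libraries. Tissues were compared in 5-month WT libraries. Alternatives were a pseudocount of 0.1, no filter, other scaling, edgeR 4.0.16 and DESeq2 1.42.0 on the recovered reads, sets of libraries left out, and each library left out in turn.

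The genes, the related lists and the tests were chosen with earlier results of these data known. Named are the Kupffer and lipid-associated genes, and of the others those called, by size of change, or where none was called the 3 with the smallest p. Related genes are named up to 3 per list and comparison. Promoter windows came from RefSeq. No window was used for Cd14, Adgre1, Spi1, Atp6v0d2, Cd86, Lyve1, Csf1r, C1qa and Tyrobp. One related gene is not reported here.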

Additional observations from a re-analysis of the deposited data

Results flagged for a closer look

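In groups of 4 to 6 libraries the highest or lowest library stood apart from the others for 32 of 189 combinations of a Kupffer, lipid-associated or called gene and a group (16.9%), by Dixon's test, which chance passes in about 1 of 20 groups. That rate does not hold where all other libraries of a group are at 0 CPM, since a single read then passes. This was so for Clec4f in KO muscle at both ages and in old WT muscle, and for Cd5l in young WT muscle. The 16.9% can therefore not be set against that rate. They came from 17 libraries. In young WT muscle replicate 2 was highest for Laptm5 (26.4 CPM), C1qa (65.1), C1qb (57.6), Folr2 (14.6) and Cd5l (0.185), genes of which the first 4 fell with age in that tissue. In old WT muscle replicate 2, which held hepatocyte transcripts, was highest for Clec4f (5.58 CPM), Cd5l (4.61), Vsig4 (3.27) and Marco (0.97), replicate 1 for Cd68 (21.6) and replicate 3 for Fcgr3 (6.67). In young KO muscle replicate 2, which held lymphocyte transcripts, was highest for Marco (17.9 CPM), Cd5l (5.9) and Timd4 (4.72), and replicate 1 was highest for Clec4f (0.0711) and lowest for Mmp12 (0). In old KO muscle replicate 1 was highest for Atp6v0d2 (1.3 CPM) and Cd5l (0.621) and replicate 3 for Clec4f (0.119).

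In young WT adipose replicate 1 was highest for Vsig4 (17 CPM) and Marco (13), and replicate 2 for Mmp12 (64.2) and Cd84 (37). In young KO adipose replicate 6, an epididymis library, was highest for Gpnmb (650 CPM) and Atp6v0d2 (59.3), and replicate 4 for Clec4f (0.996). In old WT adipose replicate 3 was highest for Mmp12 (379 CPM) and replicate 2 for Marco (7.72). In liver, old WT replicate 3 was highest for Atp6v0d2 (3.91 CPM) and Gpnmb (2.74), old KO replicate 1 for Mmp12 (7.96) and young KO replicate 1 for Itgax (2.38).

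The difference between 20 and 5 months was itself larger in adipose than in muscle of WT mice for 12 genes, on the log2 scale and by limma over all 64 libraries. They were Gpnmb (2.88), Cd68 (2.22), Itgax (2.06), Lgals3 (1.88), Cd84 (1.82), Itgam (1.77), Laptm5 (1.73), Folr2 (1.47), Ctss (1.39), Mrc1 (1.36), Fcgr3 (1.16) and Fcgr2b (0.94). It was larger in liver than in muscle of WT mice for Fcgr2b (1.17). In KO mice it was larger in adipose than in liver for Itgax (2.17), Adgre1 (2.14), Ctss (1.59), Cd84 (1.54), Lgals3 (1.51), Spi1 (1.28), Laptm5 (1.25), Csf1r (1.24) and Mrc1 (0.99), and larger in adipose than in muscle for Itgax (2.79), Gpnmb (2.75), Cd68 (2.25), Lgals3 (2.19), Adgre1 (1.5), Laptm5 (1.40) and Cd84 (1.38). This family of comparisons was chosen after the data were seen.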

How the results depend on the processing

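Of the single-gene differences recomputed under the alternatives, 2598 kept their side of the threshold, 391 lost a call, 23 gained one and none turned a called sign. With DESeq2 on the recovered reads the numbers of macrophage genes called were 4 for KO against WT in adipose at 5 months, 1 in liver at 5 months and 1 in muscle at 20 months (0 by limma in each), 7 for age in WT adipose (2 by limma), 13 in KO liver (7) and 2 in KO muscle (0). For the age difference between tissues DESeq2 called 2 for WT adipose against liver (0), 3 for WT liver against muscle (1) and 1 for KO liver against muscle (0). With no expression filter the counts were 0 for age in WT adipose, 5 in KO adipose, 3 in KO liver, 11 in WT muscle and 2 for WT liver against muscle. With a pseudocount of 0.1, or with edgeR, 4 genes were called for KO adipose against liver (9). Without the Xist libraries the counts were 0 for age in WT adipose, 11 in WT muscle, 0 for WT liver against muscle, 14 for KO adipose against liver and 12 for KO adipose against muscle (7). Without the epididymis libraries they were 2 for KO against WT in young adipose, 4 for age in WT adipose, 3 for KO adipose against liver and 3 for KO adipose against muscle. Without the hepatocyte or lymphocyte libraries they were 8 for age in WT muscle and 4 for KO adipose against muscle. Leaving out the epididymis, hepatocyte, lymphocyte or neutrophil libraries, scaling without the deposited factor, and the comparison of age between tissues were chosen after seeing the data. The cause of these moves was not tested.

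With each library left out in turn the count covered 0 to 2 for KO against WT in young adipose, 0 to 3 for age in WT adipose, 2 to 14 in KO adipose, 6 to 14 in WT liver, 1 to 12 in KO liver, 7 to 17 in WT muscle and 0 to 1 in KO muscle, where the 1 came without old replicate 1. It covered 36 to 37, 29 to 31 and 39 to 39 for liver against adipose, liver against muscle and adipose against muscle in young WT mice, and stayed at 0 for the other KO against WT comparisons and the interactions.

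For the age difference between tissues the count in KO adipose against liver covered 2 to 12: it was 2 without old adipose replicate 1, 3 without old adipose replicate 5, 4 without old adipose replicate 4, young adipose replicate 1 or young liver replicate 1 or 2, and 5 without young adipose replicate 5, old liver replicate 2 or 3 or young liver replicate 3. KO adipose against muscle covered 4 to 12, with 4 without old adipose replicate 1 or 5 or young muscle replicate 2 and 12 without young adipose replicate 4. WT adipose against muscle covered 8 to 16. WT adipose against liver covered 0 to 2, with 2 without old adipose replicate 1, young adipose replicate 2, or old or young liver replicate 3, and 1 without young liver replicate 2. WT liver against muscle covered 0 to 2, with 2 without old muscle replicate 1 and 0 without old muscle replicate 4 or young muscle replicate 2 or 4.

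Groups share numbers in their codes but no label says that a number marks 1 animal. Same-numbered libraries of different tissues had correlations of -0.0744 to 0.315 (median 0.171, 14 pairs) and others -0.279 to 0.265 (median -0.0476, 94 pairs). With the number as a replicate block the tissue comparisons called 37, 32 and 39 genes in place of 36, 30 and 39. Differences under a few reads per library, as for Kupffer genes in muscle, were not detectable at this depth.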

Other observations

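Some products of activated macrophages outside the 40 genes were called with age. Of 10 such genes tested in adipose, Nos2, the inducible nitric oxide synthase, was higher at 20 than at 5 months in KO mice, at 4.96 ± 1.61 CPM (n = 5) and 2.06 ± 2.36 CPM (n = 6), a difference of 1.19 on the log2 scale (adjusted p = 0.0422 by limma). Nos2 was the only 1 of the 10 called there, beside 10.5% of all genes higher. The cytokine Tnf was higher in old WT adipose, at 1.28 ± 0.807 against 0.354 ± 0.167 CPM (0.69, adjusted p = 0.0407), 1 of 10 beside 7.41% of all genes. Of 6 tested in muscle, Nos2 rose in old WT mice (1.08, adjusted p = 0.0335) and Retnla, a secreted product of alternatively activated macrophages, fell from 18.9 ± 7.32 to 6.91 ± 3.21 CPM (-1.32, adjusted p = 0.0234). So 1 of 6 rose and 1 fell, beside 18.6% of all genes called in either direction. Il34, a ligand of Csf1r, fell with age in KO muscle, from 9.29 ± 0.378 CPM (n = 4) to 5.70 ± 0.907 CPM (n = 5) (-0.63, adjusted p = 0.0429). It was 1 of 8 recruitment and survival ligands tested there, beside 5.57% of all genes called in either direction. Arg1, which hepatocytes express in abundance, fell in old WT liver (-0.96, adjusted p = 0.0351), 1 of 6 products tested beside 4.36% of all genes lower.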
